A study of Mus musculus with 8 samples.

Results

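Fatty acid oxidation is covered here by 34 genes: the receptors Ppara and Ppard, the carnitine shuttle, the acyl-CoA synthetases, the enzymes of the mitochondrial spiral and 4 peroxisomal genes. They were chosen by symbol, and each symbol stood for whichever of its transcript rows had most counts over the 8 libraries. All 34 were found among the 23366 symbols in the table, and all 34 passed the filter on low counts. The study sequenced RNA of MEFs (mouse embryonic fibroblasts), cells of connective tissue taken from embryos, on a C57BL/6 background at passages 3 to 5. There were 4 groups of 2 libraries each: kdm3a KO cells kept for 12 h without glucose, kdm3a KO cells fed (0 h), WT cells kept for 12 h without glucose, and WT cells fed (0 h). Kdm3a encodes a histone demethylase, and the series title names the control of autophagy as its subject. Starved cells were washed and given DMEM lacking glucose with 10% dialyzed serum, while fed cells were in DMEM with 10% undialyzed serum. Since no control had 12 h in fresh medium or dialyzed serum plus glucose, loss of glucose, the serum and the elapsed time cannot be told apart. The labels do not say how the knockout allele was made, how many embryos or lines each genotype came from, or whether the replicates were separate cultures. The p-values therefore reflect the spread among these libraries alone, and that spread may be technical.

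Cells burn long-chain fatty acids by first joining them to coenzyme A with an acyl-CoA synthetase. CPT1, in the outer mitochondrial membrane, swaps coenzyme A for carnitine, a translocase carries the acylcarnitine across the inner membrane, and CPT2 restores the acyl-CoA. Acyl-CoA dehydrogenases, a hydratase, a hydroxyacyl-CoA dehydrogenase and a thiolase then remove a short carbon unit per round, and electrons reach the respiratory chain through the electron transfer flavoprotein. Peroxisomes shorten very long and branched chains with an oxidase in place of the dehydrogenase. In liver and muscle, fasting raises many of these genes through the nuclear receptors PPAR-alpha and PPAR-delta, which bind fatty acids. Fibroblasts oxidize fatty acids as well, and human skin fibroblasts are used to diagnose inherited defects of these enzymes.

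The libraries held 38407520 to 53602289 counts each with 1 row per gene, of which the 34 genes took 0.123 to 0.213%. Kdm3a itself was at 65.4 and 66.7 CPM (read counts scaled to TMM-adjusted library size) in starved and 55.2 and 55.4 in fed libraries labelled KO, against 176 and 185 CPM in starved and 56.1 and 56.4 in fed WT libraries. The fed level of Kdm3a thus shows no loss of its transcript, although counts summed over a transcript would not reveal a missing exon. These cells are called KO-labelled below, and every direction between genotypes rests on that label. Xist, which coats the inactive X chromosome, was at 869 to 1370 CPM in KO-labelled and 0.939 to 1.54 CPM in WT libraries, so genotype and sex of the cells cannot be told apart. Among the members Acsl4 lies on the X chromosome. Fibroblast markers summed to 13088 to 13214 CPM in starved and 10747 to 10793 in fed KO-labelled libraries, and to 19958 to 20961 CPM in starved and 19557 to 20160 in fed WT libraries. Of the 10 markers, Dcn was at 38.3 and 38.6 CPM in starved and 52.2 and 50.6 in fed KO-labelled libraries but at 1.66 to 2.57 CPM in the WT libraries, where Lum was at 0 to 0.0463 CPM, so Dcn was low and Lum at or near 0 there. Others went the opposite way: Thy1 was at 4.72 and 5.61 CPM in starved and 5.88 and 6.62 in fed KO-labelled libraries, against 166 and 163 CPM in starved and 99.3 and 103 in fed WT libraries, and Col1a2 was at 36.2 and 36.4 CPM in starved and 267 and 261 in fed KO-labelled libraries, against 353 and 381 CPM in starved and 6200 and 6020 in fed WT libraries. In the WT sum the fall of collagen genes such as Col1a2 with starvation stood beside a rise of Vim, at 11396 and 11323 CPM in starved and 4400 and 4395 in fed WT libraries. Over the list, 5 markers were called higher and 4 lower in starved KO-labelled than in starved WT cells (41.9% and 37.7% of all genes). In fed cells 5 were called higher and 5 lower (34.5% and 39.8% of all genes). Endothelial markers summed to 54.9 and 52.9 CPM in starved WT libraries, nearly all of it Kdr, and to 2.29 to 5.50 CPM in the other 6, with Tie1 at 0 counts in all 8. Adipocyte and hepatocyte markers summed to under 1 CPM in each library, with Plin1, Lep, Cidec, Cidea, Alb, Ttr and Fgb at 0 counts in all 8. Macrophage and blood markers summed to 53.2 and 54.3 CPM in starved and 21.5 and 22.1 in fed KO-labelled libraries, and to 7.001 and 10.2 CPM in starved and 19.0 and 19.4 in fed WT libraries. Most of the starved KO-labelled sum was Cd68 (40.9 and 40.7 CPM), a lysosomal protein, and Ptprc and Emr1, which define blood cells and macrophages, were at 0 counts in all 8 libraries. Csf1r, a receptor of macrophages, was at 6.03 and 6.42 CPM in starved and 0.438 and 0.398 in fed KO-labelled libraries, against 0.829 and 1.82 CPM in starved and 0.533 and 1.41 in fed WT libraries. Cd14, which made up most of the sum in fed cells, was lower in the starved libraries of both genotypes. It was at 5.90 and 6.69 CPM in starved and 16.8 and 17.9 in fed KO-labelled libraries. In WT libraries Cd14 was at 2.70 and 4.33 CPM when starved and 16.2 and 16.0 when fed. Epithelial markers summed to 4.08 and 4.31 CPM in starved and 2.43 and 2.01 in fed KO-labelled libraries, and to 21.4 and 22.3 CPM in starved and 25.5 and 25.4 in fed WT libraries, most of the WT sum being Krt19. The part of these marker lists in the differences between genotypes or with starvation was not tested. In bulk RNA, fewer cells of a type and less RNA per cell cannot be told apart.

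Apart from Ppara with its few counts, the 3 genes with the largest responses to starvation or differences between genotypes were Acot2, Acadm and Acox3, and their promoters are shown because PPAR receptors act at such sites. Each stretch is the 250 bases before the transcription start in RefSeq's annotation of GRCm38.p6, with any match to the nuclear receptor half-site AGGTCA or its complement in capitals. Acot2 lies at chr12:83987611-83987860 on the plus strand, Acadm at chr3:153944644-153944893 on the minus strand and Acox3 at chr5:35582784-35583033 on the plus strand.
Acot2: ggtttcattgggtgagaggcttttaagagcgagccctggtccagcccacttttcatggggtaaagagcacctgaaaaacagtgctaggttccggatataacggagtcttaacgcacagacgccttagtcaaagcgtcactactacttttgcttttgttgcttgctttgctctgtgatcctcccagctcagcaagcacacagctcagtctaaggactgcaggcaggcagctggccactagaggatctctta
Acadm: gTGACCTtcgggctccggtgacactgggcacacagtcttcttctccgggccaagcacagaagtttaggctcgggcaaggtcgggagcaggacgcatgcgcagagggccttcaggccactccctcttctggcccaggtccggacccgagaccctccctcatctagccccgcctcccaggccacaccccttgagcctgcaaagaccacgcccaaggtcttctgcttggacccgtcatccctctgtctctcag
Acox3: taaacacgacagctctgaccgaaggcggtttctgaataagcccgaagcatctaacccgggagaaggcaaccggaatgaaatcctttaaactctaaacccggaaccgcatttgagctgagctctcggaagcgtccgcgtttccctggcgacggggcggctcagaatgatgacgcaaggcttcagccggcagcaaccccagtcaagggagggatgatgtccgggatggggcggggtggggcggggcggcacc
Only the Acadm stretch of these 3 held the half-site, as TGACCT starting 249 bases before the start. The full PPAR-RXR element searched, AGGTCANAGGTCA on either strand, is a pair of half-sites with 1 base between them. It was in 0 of the 28 members with a promoter in the table and in 10 of 27025 promoters (0.037%). The single half-site was in 5 of those 28 (17.9%: Acadm, Acadvl, Cpt1a, Cpt1c and Echs1) and in 13.8% of all promoters. The ATF4-C/EBP composite TGATGNAA, bound by factors of the amino acid stress response, was in 1 of the 28 (3.57%, Echs1) and in 3.53% of all promoters. A match is a description of letters, and a stretch without one says nothing of sites elsewhere.

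Per kilobase of transcript, which allows levels of different genes to be compared, the spiral's electron acceptor led in fed WT cells. Etfa stood at 61.9 ± 2.1 and Etfb at 52.2 ± 0.18 CPM per kb (SD, n = 2 libraries), followed by Acadm at 43.5 ± 1.3, Acadvl at 40.3 ± 0.50 and Acaa1a at 38.4 ± 0.39. Ppara, at 0.141 ± 0.011 CPM per kb, was the lowest, with Acot2 (1.91 ± 0.37) and Slc22a5 (2.81 ± 0.15) next. This order shifted among the groups for many members, and Acadm, Acot2 and Eci1 are given as examples. Acadm held rank 31 of 34 in starved KO-labelled, 18 in fed KO-labelled, 29 in starved WT and 3 in fed WT cells. Acot2 held rank 10 in starved KO-labelled, 33 in fed KO-labelled, 18 in starved WT and 33 in fed WT cells. Eci1 held rank 5 in starved and 15 in fed KO-labelled cells, and 2 in starved and 15 in fed WT cells. The summed level of the 34 genes moved far less, at 1714 and 1713 CPM in starved and 1803 and 1811 in fed KO-labelled libraries, against 1553 and 1572 CPM in starved and 1729 and 1759 in fed WT libraries. That small move rests on TMM scaling. As a plain share of counts, the sum was 0.169% in each starved and 0.212 and 0.213% in fed KO-labelled libraries. In WT libraries it was 0.123 and 0.124% when starved and 0.188 and 0.191% when fed.

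Starved and fed WT cells were compared to see how these genes respond to the loss of glucose. The thioesterase gene Acot2 and the isomerase gene Eci1 rose, while Acadm, Acox3, Cpt2, Crat and Ppara fell by more than 2-fold. A gene was called when edgeR's quasi-likelihood test gave a Benjamini-Hochberg adjusted p under 0.05. Of the 34 members 11 were called higher and 20 lower in WT, and 3 (Acsl3, Etfa and Hsd17b4) were not called. Most genes in this table pass that test, so the calls are read against all 14418 tested genes, of which 81.6% were called (36.7% higher and 44.8% lower). Calls of more than 2-fold were made for 2 members higher and 5 lower (15% and 27.4% of all genes). The median log2 fold change was -0.28 over the members and -0.17 over all genes. The split depends on scaling: TMM assumes that most genes do not change, and with library totals in its place the median of all genes moved to -0.63, and Acot2 and Eci1 were the 2 members still higher. The values of the other 9 then turned negative.

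The starvation response of KO-labelled cells was evenly divided. Acot2 and Eci1 again rose and Acadm again fell by more than 2-fold, as did Acsl1 and Etfdh, while Acox3 was not called. The test called 13 members higher and 13 lower, and 8 were not called, where 79.7% of all genes were called (39.4% higher and 40.3% lower). More than 2-fold changes were 2 higher and 3 lower (13.2% and 20% of all genes). Median log2 fold changes were 0.0036 for the members and -0.02 for all genes. Library totals left 5 members higher and 22 lower in this comparison, with the median of all genes at -0.27.

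**Figure D1:**
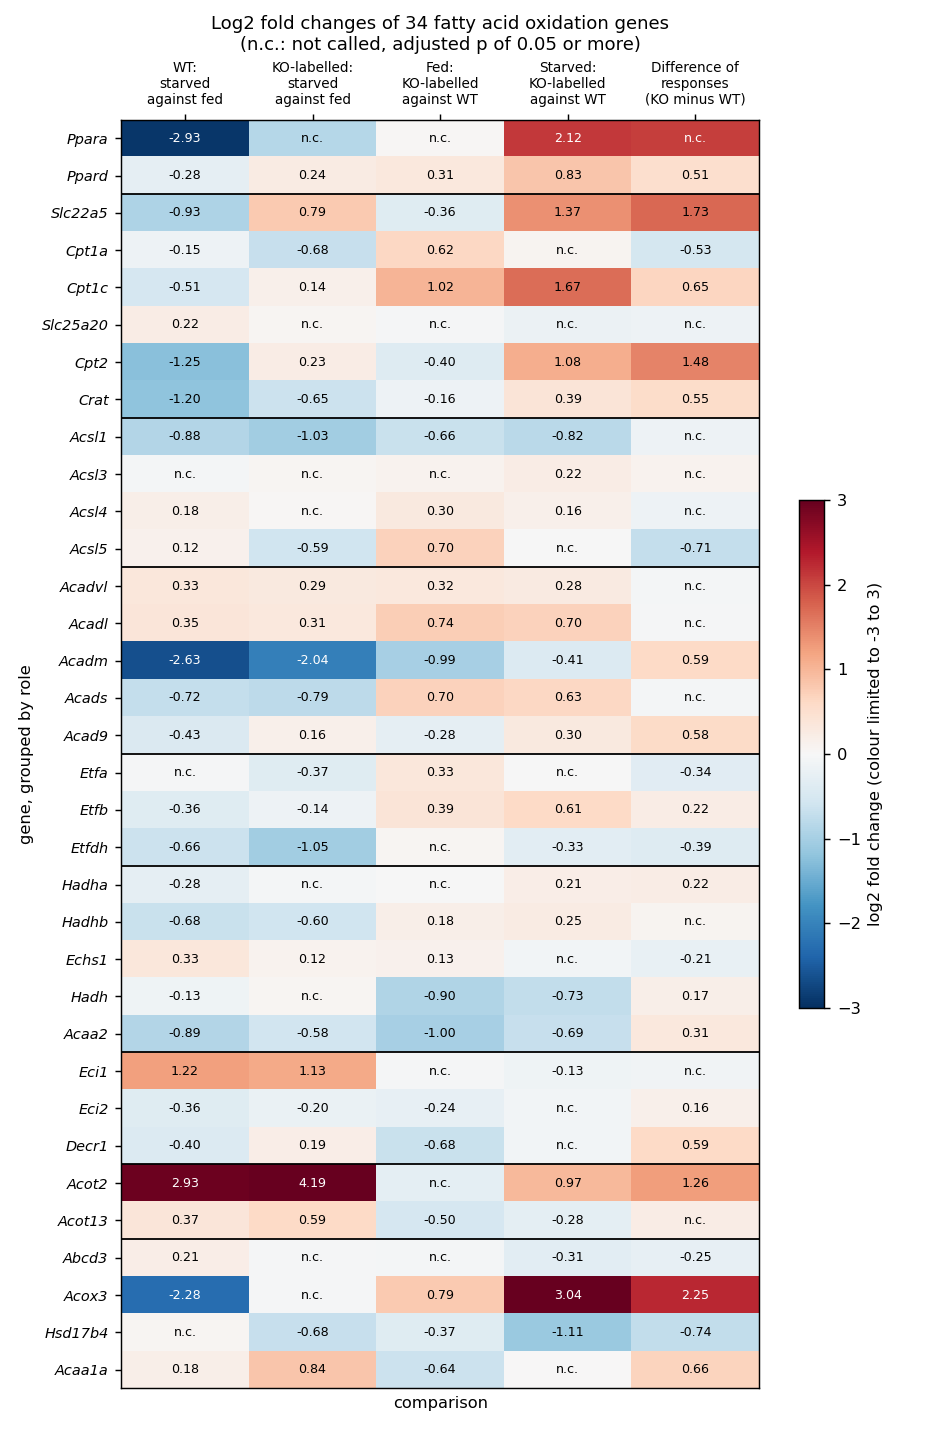
Log2 fold changes of the 34 genes (rows, grouped by role) in the 5 comparisons (columns), with red for higher and blue for lower in the first-named group; n.c. marks values that edgeR's test did not call. Acot2 (4.19 in KO-labelled and 2.93 in WT cells) and Eci1 are the 2 members over 2-fold higher in both starvation responses, and all WT rises but these 2 turn negative when libraries are scaled by their totals.

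The receptors differed in level by a large factor. Ppara, the fasting regulator of liver, had 10 and 17 counts in starved and 24 and 31 in fed KO-labelled libraries, against 4 and 0 counts in starved and 22 and 19 in fed WT libraries. Its level in fed WT cells was 7.91 times that in starved WT cells (95% counting interval 2.87 to 30.4), a fall on starvation called at an adjusted p of 0.0034 by edgeR's quasi-likelihood test. Without starved WT replicate 2, the library at 0, that call was lost (-1.87 on the log2 scale, adjusted p = 0.0675). Ppara was thus near the limit of detection, and starved WT cells were the lowest of the groups. Starved KO-labelled cells had 4.52 times the starved WT level (1.57 to 17.8), called at an adjusted p of 0.0392 with edgeR, which rose to 0.0539 with DESeq2. That call was also lost without any one library other than starved WT replicate 1, with log2 values of 1.07 to 2.35. Ppard, the receptor present in most tissues, stood at 67.8 and 64.2 CPM in starved and 53.5 and 58.4 in fed KO-labelled libraries, against 36.8 and 37.5 CPM in starved and 43.1 and 46.9 in fed WT libraries. It was higher in KO-labelled than in WT cells in both conditions, and no library overlapped. Starvation moved it by 0.24 ± 0.053 (log2 ± SE) in KO-labelled and -0.28 ± 0.059 in WT cells, but the KO-labelled change was -0.02 with library totals.

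Several genes of the carnitine shuttle diverged between the genotypes. Slc22a5, which imports carnitine into the cell, stood at 12.7 and 10.6 CPM in starved and 6.79 and 6.64 in fed KO-labelled libraries, against 4.94 and 4.06 CPM in starved and 8.92 and 8.28 in fed WT libraries. It was the one member that rose with starvation in KO-labelled cells and fell in WT cells under every setting run, and the 4 groups did not overlap. Its log2 fold change was 0.79 ± 0.12 in KO-labelled and -0.93 ± 0.14 in WT cells (adjusted p = 3.96e-06 and 3.59e-06, edgeR). The fed difference of -0.36 ± 0.13 was lost with DESeq2 (-0.32), with library totals (-0.24), and without fed WT replicate 1 (-0.31), fed KO replicate 1 (-0.37) or fed KO replicate 2 (-0.34).

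Cpt2, the inner-membrane carnitine palmitoyltransferase, stood at 28.2 and 25.8 CPM in starved and 23.1 and 23.0 in fed KO-labelled libraries, against 12.8 and 12.6 CPM in starved and 31.4 and 29.2 in fed WT libraries. Starved WT cells stood apart as the lowest group, with a fall of 2.38-fold from the fed WT level (log2 fold change -1.25 ± 0.078, adjusted p = 2.57e-12, edgeR). The KO-labelled rise of 0.23 ± 0.069 was -0.03 with library totals and was not called without starved KO replicate 1 (0.17). Cpt1a, the outer-membrane enzyme that sets the pace of the pathway, followed another pattern. It stood at 73.0 and 75.3 CPM in starved and 120 and 118 in fed KO-labelled libraries, against 65.2 and 74.2 CPM in starved and 78.8 and 76.4 in fed WT libraries. Fed KO-labelled cells alone were high, and the other 3 groups lay within 65.2 to 78.8 CPM. It fell by 0.68 ± 0.047 on the log2 scale with starvation in KO-labelled cells; the WT change of -0.15 ± 0.051 was not called with DESeq2 (-0.09) or without fed WT replicate 1 (-0.13), and it was 0.01 without starved WT replicate 1.

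Cpt1c, the isoform of brain that resides in the endoplasmic reticulum, was at 68.7 and 74.5 CPM in starved and 63.3 and 66.6 in fed KO-labelled libraries, against 23.0 and 21.9 CPM in starved and 31.4 and 32.7 in fed WT libraries. KO-labelled libraries were all above WT libraries, by 1.67 ± 0.059 when starved and 1.02 ± 0.054 when fed (log2; adjusted p = 1.65e-16 and 3.32e-13, edgeR). Crat, which moves acetyl groups between carnitine and coenzyme A, was at 28.0 and 24.0 CPM in starved and 38.5 and 42.8 in fed KO-labelled libraries, against 19.5 and 19.9 CPM in starved and 45.1 and 45.4 in fed WT libraries. It fell with starvation in both genotypes, by 0.65 ± 0.069 in KO-labelled and by 1.20 ± 0.076 in WT cells. Slc25a20, the translocase, ranged from 18.0 to 23.1 CPM over all 8 libraries. It was called once, as higher in starved WT cells (0.22 ± 0.088), and that call ended without fed WT replicate 1 (0.12) and turned with library totals (-0.24).

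**Figure D2:**
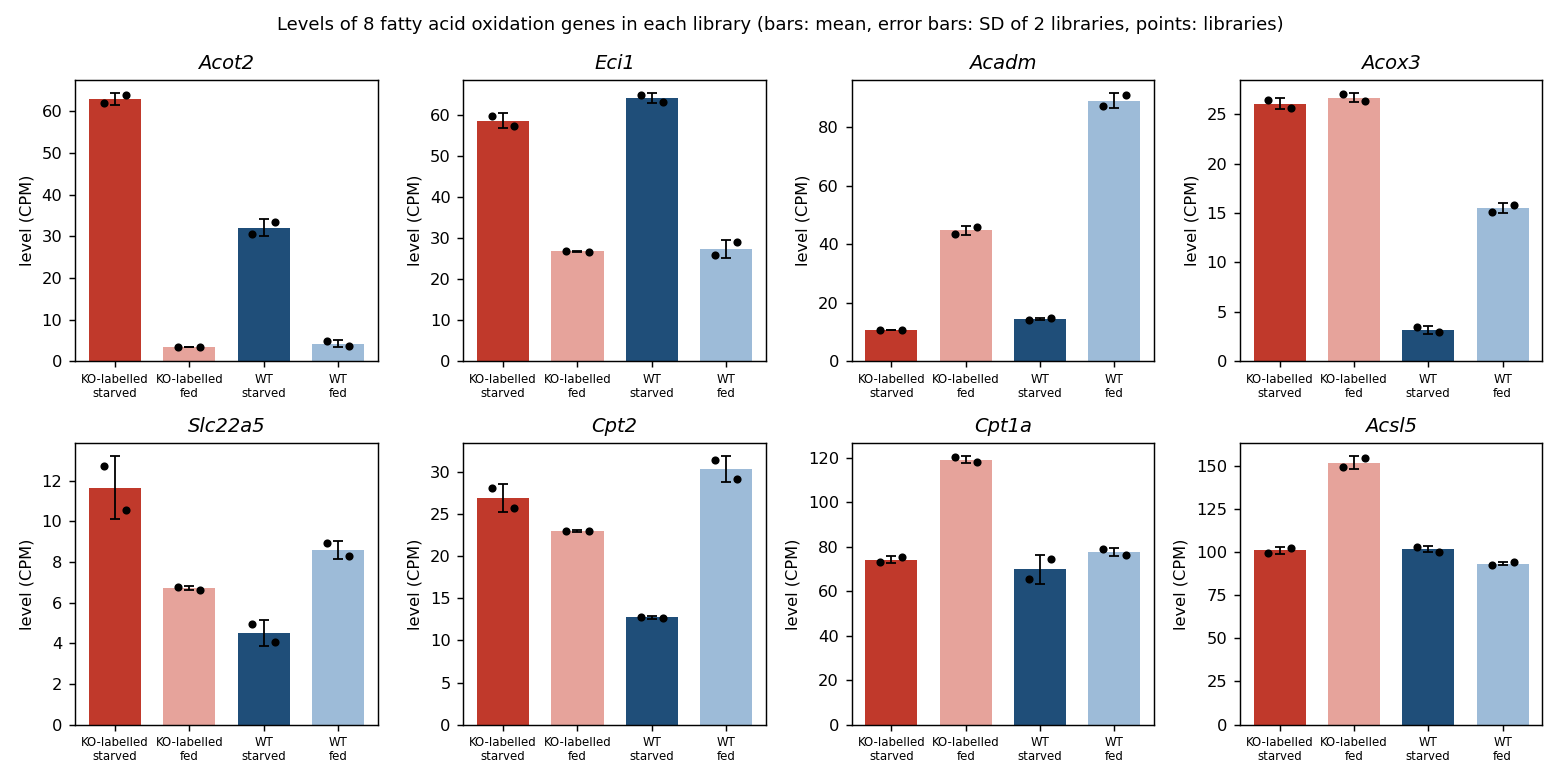
Levels in CPM of 8 members in each library (points), with group means (bars) and SD of 2 libraries (error bars), in the order starved KO-labelled, fed KO-labelled, starved WT, fed WT. Acot2 and Eci1 are high in both starved groups, Acadm is low in both, Acox3 and Cpt2 are low in starved WT cells only among the 4 groups, and Cpt1a and Acsl5 are high in fed KO-labelled cells.

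Among the acyl-CoA synthetases, which activate long-chain fatty acids, Acsl1 and Acsl5 changed most. Acsl1 was at 21.3 and 19.7 CPM in starved and 42.0 and 42.0 in fed KO-labelled libraries, against 34.6 and 37.7 CPM in starved and 66.5 and 66.4 in fed WT libraries. Starvation lowered it in both genotypes, by 1.03 ± 0.058 in KO-labelled and by 0.88 ± 0.056 in WT cells on the log2 scale, and KO-labelled libraries were below WT libraries in either condition. Acsl5 was at 99.3 and 102 CPM in starved and 149 and 154 in fed KO-labelled libraries, against 103 and 100 CPM in starved and 92.7 and 94.0 in fed WT libraries. As with Cpt1a, fed KO-labelled cells were the one high group, and Acsl5 fell there by 0.59 ± 0.037 with starvation. The WT rise of 0.12 ± 0.039 was lost without fed WT replicate 1 (0.11) and was -0.34 with library totals. Acsl3, found on lipid droplets, ranged from 37.4 to 45.6 CPM. Its starved difference between genotypes (0.22 ± 0.059) was its sole call, and it ended without starved WT replicate 1 (0.11). Acsl4, which prefers arachidonic acid, ranged from 49.9 to 64.4 CPM and was higher in KO-labelled cells by 0.30 ± 0.044 when fed.

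The acyl-CoA dehydrogenases, which take the first step of each round and differ in the chain length they accept, did not move together. Acadm, for medium chains, was at 10.8 and 10.8 CPM in starved and 43.5 and 45.9 in fed KO-labelled libraries, against 14.1 and 14.6 CPM in starved and 87.1 and 90.8 in fed WT libraries. Both starved groups were far below both fed groups, and KO-labelled libraries were below WT libraries in each condition. The fall with starvation was 4.13-fold in KO-labelled cells (-2.04 ± 0.061, adjusted p = 7.67e-18, edgeR) and 6.21-fold in WT cells (-2.63 ± 0.061, adjusted p = 7.16e-20). Fed KO-labelled cells had 0.502 times the fed WT level (-0.99 ± 0.050).

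Acads, for short chains, also fell with starvation, to 31.2 ± 0.39 in KO-labelled cells, against 53.9 ± 1.2 CPM in fed ones, and to 20.2 ± 0.26 in WT cells, against 33.2 ± 0.33 CPM in fed ones. The long-chain enzymes went the other way. Acadl averaged 101 ± 2.7 CPM in starved and 81.3 ± 1.1 in fed KO-labelled cells, and 62.1 ± 5.0 CPM in starved and 48.7 ± 1.0 in fed WT cells. Acadvl, bound to the inner membrane and acting on the longest chains, averaged 133 ± 1.4 CPM in starved and 109 ± 1.7 in fed KO-labelled cells, and 110 ± 1.7 CPM in starved and 87.4 ± 1.1 in fed WT cells. These rises of 0.29 to 0.35 on the log2 scale rest on TMM scaling. With library totals they became 0.03 and 0.05 in KO-labelled cells, which were not called, and -0.12 and -0.10 in WT cells, for Acadvl and Acadl in that order. Acad9, which also helps to assemble respiratory complex I, averaged 40.3 ± 0.97 CPM in starved and 36.2 ± 2.6 in fed KO-labelled cells, and 32.6 ± 0.27 CPM in starved and 43.8 ± 1.2 in fed WT cells. Its WT fall was 0.43 ± 0.061 on the log2 scale. The KO-labelled rise (0.16 ± 0.057) was not called with DESeq2 (0.12), or without starved WT replicate 1 (0.10), starved WT replicate 2 (0.10), fed KO replicate 1 (0.09) or starved KO replicate 2 (0.13), and was -0.10 with library totals.

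The electron transfer flavoprotein passes electrons from these dehydrogenases to ubiquinone. Etfdh, the oxidoreductase at its end, was at 24.1 and 26.8 CPM in starved and 53.1 and 52.3 in fed KO-labelled libraries, against 31.2 and 32.8 CPM in starved and 49.0 and 51.8 in fed WT libraries. Starvation lowered it in both genotypes, by 1.05 ± 0.058 in KO-labelled and by 0.66 ± 0.060 in WT cells on the log2 scale. Etfa, one subunit of the carrier, averaged 83.9 ± 2.6 CPM in starved and 108 ± 2.9 in fed KO-labelled cells, and 84.7 ± 6.1 CPM in starved and 86.2 ± 3.0 in fed WT cells. Etfb, the other subunit, averaged 55.3 ± 0.94 CPM in starved and 61.0 ± 0.21 in fed KO-labelled cells, and 36.3 ± 0.40 CPM in starved and 46.6 ± 0.16 in fed WT cells. Both subunits were higher in fed KO-labelled than in fed WT cells, by 0.33 ± 0.047 and 0.39 ± 0.046. Etfb fell with starvation by 0.36 ± 0.050 in WT cells; its fall in KO-labelled cells (0.14 ± 0.045) was not called without starved KO replicate 2 (-0.12).

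For the later steps of the spiral, one protein complex serves long chains and soluble enzymes serve shorter ones. Hadha and Hadhb encode the alpha and beta subunits of the trifunctional protein, which handles long chains. Hadha averaged 115 ± 2.6 CPM in starved and 120 ± 1.5 in fed KO-labelled cells, and 99.7 ± 1.4 CPM in starved and 121 ± 1.0 in fed WT cells. Hadhb averaged 38.4 ± 1.1 CPM in starved and 58.3 ± 1.6 in fed KO-labelled cells, and 32.2 ± 0.96 CPM in starved and 51.5 ± 1.6 in fed WT cells. Hadhb fell by 0.60 ± 0.050 in KO-labelled and by 0.68 ± 0.055 in WT cells on the log2 scale, whereas Hadha fell by 0.28 ± 0.038 in WT and was not called in KO-labelled cells. Whether the falls of the subunits differ from each other was not tested.

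Acaa2, the thiolase that ends each round for shorter chains, was at 17.6 and 19.95 CPM in starved and 29.2 and 27.0 in fed KO-labelled libraries, against 31.6 and 29.2 CPM in starved and 55.5 and 57.1 in fed WT libraries. Fed KO-labelled cells were at the level of starved WT cells, and starved KO-labelled cells were lower still. Hadh, the soluble hydroxyacyl-CoA dehydrogenase, ranged from 32.6 to 34.5 CPM over the 4 KO-labelled libraries and from 54.4 to 62.0 CPM over the 4 WT libraries. It divided the genotypes without overlap, by -0.73 ± 0.053 when starved and -0.90 ± 0.051 when fed. Its small WT fall (0.13 ± 0.051) was not called with DESeq2 (-0.06), with rows of a symbol summed (-0.12), or without fed WT replicate 2 (-0.10), starved WT replicate 1 (-0.02) or starved WT replicate 2 (-0.08). Echs1, the short-chain hydratase, ranged from 50.2 to 65.1 CPM; its WT rise (0.33 ± 0.046) was -0.13 and its KO-labelled rise (0.12 ± 0.044) -0.14 with library totals. The KO-labelled rise was also not called with DESeq2 (0.08), nor without either starved WT replicate (0.06 each), fed KO replicate 1 (0.11) or starved KO replicate 2 (0.11).

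Double bonds in unsaturated fatty acids need extra enzymes, and these diverged. Eci1, an enoyl-CoA isomerase of mitochondria, was at 60.0 and 57.5 CPM in starved and 26.9 and 26.8 in fed KO-labelled libraries, against 65.1 and 63.3 CPM in starved and 25.9 and 29.0 in fed WT libraries. The starved libraries of both genotypes lay well above the fed ones, by 2.19-fold in KO-labelled (1.13 ± 0.055, adjusted p = 4.56e-14, edgeR) and 2.34-fold in WT cells (1.22 ± 0.058, adjusted p = 1.94e-14). Eci2, a related isomerase, instead averaged 48.2 ± 1.8 CPM in starved and 55.5 ± 0.057 in fed KO-labelled cells, and 51.2 ± 1.6 CPM in starved and 65.8 ± 0.57 in fed WT cells, and was called lower in both responses. Decr1, the dienoyl-CoA reductase, averaged 34.2 ± 1.4 CPM in starved and 30.0 ± 1.4 in fed KO-labelled cells, and 36.2 ± 0.069 CPM in starved and 47.8 ± 2.0 in fed WT cells. Fed WT cells were its one high group. Its KO-labelled rise (0.19 ± 0.058) was not called with DESeq2 (0.16), without fed KO replicate 1 (0.15) or without starved KO replicate 1 (0.16), and was -0.06 with library totals.

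Thioesterases release free fatty acids from coenzyme A. Acot2, the mitochondrial long-chain thioesterase, was at 62.0 and 64.0 CPM in starved and 3.47 and 3.44 in fed KO-labelled libraries, against 30.6 and 33.5 CPM in starved and 4.77 and 3.61 in fed WT libraries. Every starved library lay above every fed library, and the starved KO-labelled level was 1.96 times the starved WT level. The rise was 18.2-fold in KO-labelled cells (4.19 ± 0.092, adjusted p = 4.9e-20, edgeR) and 7.63-fold in WT cells (2.93 ± 0.099, adjusted p = 5.52e-17). When fed, the genotypes differed by -0.28 ± 0.13, which was not called (adjusted p = 0.0539), but was without fed WT replicate 2 (-0.47) and with no filter on low counts (-0.27). Its cytosolic neighbour Acot1 has a near-identical sequence, so the counting may split reads between them and both are uncertain. Acot1 was at 10.4 and 10.9 CPM in starved and 0.924 and 0.914 in fed KO-labelled libraries, against 3.72 and 6.51 CPM in starved and 2.29 and 1.87 in fed WT libraries. Acot13, a small thioesterase, averaged 27.0 ± 2.5 CPM in starved and 18.0 ± 1.8 in fed KO-labelled cells, and 32.9 ± 0.99 CPM in starved and 25.4 ± 0.37 in fed WT cells. It rose by 0.59 ± 0.078 in KO-labelled and by 0.37 ± 0.079 in WT cells, and the WT rise became -0.08 with library totals.

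The 4 peroxisomal members each had a pattern of their own. Acox3, an acyl-CoA oxidase for branched chains, was at 26.4 and 25.6 CPM in starved and 27.0 and 26.3 in fed KO-labelled libraries, against 3.44 and 2.91 CPM in starved and 15.1 and 15.8 in fed WT libraries. KO-labelled libraries lay above all WT libraries, and their starved and fed values were close together. The KO-labelled response of -0.03 ± 0.072 was not called (adjusted p = 0.667, edgeR), but with library totals it was -0.29 and was called. In WT cells it fell 4.87-fold (-2.28 ± 0.11, adjusted p = 2.46e-14, edgeR). Hsd17b4, the peroxisomal bifunctional hydratase and dehydrogenase, was at 44.8 and 41.6 CPM in starved and 69.1 and 69.8 in fed KO-labelled libraries, against 90.1 and 96.4 CPM in starved and 87.3 and 92.3 in fed WT libraries. It fell with starvation in KO-labelled cells (-0.68 ± 0.049) and was below the WT level in both conditions. Acaa1a, the peroxisomal thiolase, was at 81.1 and 74.5 CPM in starved and 44.1 and 42.5 in fed KO-labelled libraries, against 73.2 and 80.7 CPM in starved and 68.2 and 67.2 in fed WT libraries. Fed KO-labelled cells were its one low group, and it rose there by 0.84 ± 0.052 with starvation. The small WT rise (0.18 ± 0.052) was -0.27 with library totals, and reads may be shared with the near-identical Acaa1b. Abcd3, a transporter of acyl-CoA into peroxisomes, ranged from 60.8 to 77.8 CPM, highest in starved WT libraries; its WT rise (0.21 ± 0.044) was -0.25 with library totals.

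Between the genotypes in fed cells, 13 members were called higher and 13 lower in KO-labelled cells, and 8 were not called, while 74.4% of all genes were called (34.5% higher and 39.8% lower). The higher calls of most size were Cpt1c, Acox3, Acadl (0.74 ± 0.049), Acsl5 (0.70 ± 0.037), Acads (0.70 ± 0.053) and Cpt1a (0.62 ± 0.048). Those lower were Acaa2 (-1.003 ± 0.064), Acadm, Hadh, Decr1 (-0.68 ± 0.057), Acsl1 (-0.66 ± 0.053), Acaa1a (-0.64 ± 0.053) and Acot13 (-0.50 ± 0.079). Of the 5 acyl-CoA dehydrogenases 3 were thus higher (Acadvl, Acadl and Acads) and 2 lower, Acadm and Acad9 (-0.28 ± 0.057). One member passed 2-fold in each direction, Cpt1c at 2.03-fold higher and Acaa2 at 2.00-fold lower (12.5% and 11.2% of all genes). These lay at the edge. Cpt1c dropped under 2-fold without fed WT replicate 1 or fed KO replicate 2, leaving 0 higher. Acaa2 dropped under it with DESeq2, library totals, no filter and summed rows, and without fed WT replicate 2, either starved WT replicate or starved KO replicate 2, each leaving 0 lower. Without fed WT replicate 1 there were 2 lower. The median log2 difference was -0.02 over the members and -0.06 over all genes.

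In starved cells, 17 members were called higher and 9 lower in KO-labelled than in WT cells, and 8 were not called. Over all genes 79.6% were called (41.9% higher and 37.7% lower). More than 2-fold higher were 5 members (21.8% of all genes): Acox3 by 8.20-fold (3.04 ± 0.10, adjusted p = 9.94e-17, edgeR), Cpt1c by 3.19-fold, Slc22a5 by 2.59-fold, Cpt2 by 2.12-fold, and Ppara at its few counts. Hsd17b4 was the 1 member more than 2-fold lower, by 2.16-fold (-1.11 ± 0.050; 12.5% of all genes). Within the carnitine shuttle 4 of 6 genes were higher (Slc22a5, Cpt1c, Cpt2 and Crat) and Cpt1a and Slc25a20 were not called. Of the 5 acyl-CoA dehydrogenases 4 were higher and Acadm was lower (-0.41 ± 0.073), which was not called with library totals (-0.09). The other lower calls were Acsl1, Etfdh, Hadh, Acaa2, Eci1, Acot13 and Abcd3. Eci1 (-0.13 ± 0.054), Acot13 (-0.28 ± 0.077) and Abcd3 (-0.31 ± 0.044) turned to 0.19, 0.03 and 0.01 with library totals, and Acot13 was also not called without starved KO replicate 1 (-0.19). Eci1 was not called with rows of a symbol summed (-0.13), nor without fed KO replicate 1 (-0.12) or starved KO replicate 2 (-0.10). The median log2 difference was 0.12 over the members and 0.07 over all genes. Library totals moved the median of all genes to 0.39 and left 4 members lower.

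The last comparison asked whether the response to starvation itself differed between the genotypes, as the KO-labelled log2 fold change minus the WT one. The test called 16 members with a higher and 7 with a lower response in KO-labelled cells, and 11 were not called, where 64.5% of all genes were called (34.1% higher and 30.4% lower). The 4 differences above 2-fold (15.4% of all genes) were Acox3 (2.25 ± 0.13, adjusted p = 5.46e-12, edgeR), Slc22a5 (1.73 ± 0.19, adjusted p = 5.63e-08), Cpt2 (1.48 ± 0.10, adjusted p = 8.23e-11) and Acot2 (1.26 ± 0.15, adjusted p = 2.22e-07). No member had a response more than 2-fold lower, against 6.57% of all genes. Below 2-fold, Hsd17b4 (-0.74 ± 0.068), Acsl5 (-0.71 ± 0.054) and Cpt1a (-0.53 ± 0.069) had the lower KO-labelled responses of most size. Acox3, Slc22a5 and Cpt2 fell in WT cells and were not called lower in KO-labelled cells with TMM scaling, whereas Acot2 rose in both. Eci1, Acadvl, Acadl, Acads, Acsl1 and Hadhb responded in both genotypes with a difference that was not called. The number with a lower response was 12 without either starved WT replicate and 3 with library totals. Over the members the median difference was 0.17, and over all genes 0.10.

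**Figure D3:**
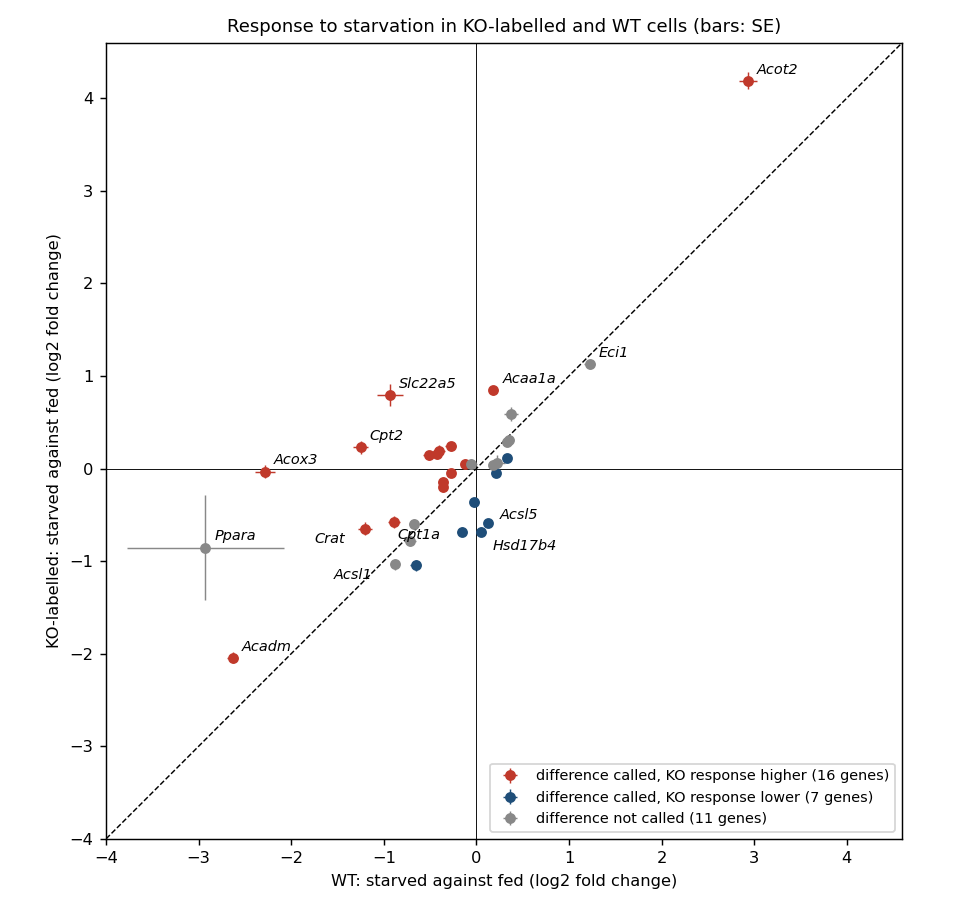
Log2 fold change with starvation in WT cells (x axis) and in KO-labelled cells (y axis) for the 34 genes, with SE bars and a dashed line of equal response; colours give the test of the difference. Acox3, Slc22a5 and Cpt2 lie far above the line, Hsd17b4, Acsl5 and Cpt1a below it, and Eci1 close to it; with library totals the points shift left and down, and WT rises other than those of Acot2 and Eci1 turn to falls.

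Of the 24 members called in both starvation responses, 7 were higher in both, 10 were lower in both and 7 had opposite calls. Over all genes 81.6% were called in WT and 79.7% in KO-labelled starvation. Calls shared or opposite between the responses were not counted over all genes, so these counts are not read as particular to the members. The opposite calls were those of Ppard, Slc22a5, Cpt1c, Cpt2, Acad9 and Decr1, higher in KO-labelled and lower in WT cells, and of Acsl5, the other way round. All 7 had a called difference of responses, but opposite calls in the same fit nearly ensure this, so it adds no support. Apart from Slc22a5, each opposite call rested on a small change that library totals turned: the KO-labelled rise of Cpt1c became -0.11, for example. That rise (0.14 ± 0.050) was also not called with DESeq2 (0.11), nor without starved WT replicate 1 (0.09), starved WT replicate 2 (0.09), fed KO replicate 1 (0.11) or starved KO replicate 2 (0.08).

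Other genes of the pathway were described with 4 further lists. Their counts and medians rest on TMM scaling, and those with library totals are not given here. Between starved genotypes, library totals moved the median of all genes from 0.07 to 0.39. The share of all calls that were higher then went from 52.6% to 67.4%. Contrasts of the lists with all genes are thus read under TMM scaling only. The first list, of other mitochondrial genes, was mixed. Beside genes of beta-oxidation it held Ivd, Acad8 and Acadsb, of branched-chain amino acid breakdown, and Mut, Mcee, Pcca and Pccb, of propionyl-CoA breakdown. Its counts and medians are thus not those of fatty acid oxidation alone. Of its 19 tested genes, 15 were higher and 2 lower in starved KO-labelled than in starved WT cells. Over all genes 41.9% and 37.7% were so called, and the medians were 0.98 for the list and 0.07 for all genes. The responses of 12 were higher and 2 lower (median 0.67, against 0.10), and 34.1% and 30.4% of all genes were so called. Without fed WT replicate 1 or starved KO replicate 2, 1 response was lower. Mlycd, which degrades the CPT1 inhibitor malonyl-CoA, was at 11.02 and 9.64 CPM in starved and 8.49 and 8.59 in fed KO-labelled libraries, against 3.53 and 3.97 CPM in starved and 12.6 and 13.2 in fed WT libraries. Like Cpt2 it had starved WT cells as its low group. With WT starvation 1 of the 19 was higher and 15 lower (median -1.24), against 36.7% and 44.8% of all genes. With KO-labelled starvation 4 were higher and 9 lower (median -0.24), against 39.4% and 40.3%. In fed cells 7 were higher and 9 lower in KO-labelled than in WT (median -0.13), against 34.5% and 39.8%.

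The list of other peroxisomal genes also held Abcd4, a transporter of lysosomes. The counts and medians of this list are thus not those of peroxisomes alone. Of its 20 tested genes, 14 were higher and 2 lower in starved KO-labelled than in starved WT cells. These were 70% and 10%, against 41.9% and 37.7% of all genes (median 0.82). The responses of 15 were higher and 2 lower (75% and 10%, against 34.1% and 30.4%, median 1.04). Acox2, the oxidase of bile acid precursors, was at 6.16 and 5.82 CPM in starved and 0.0648 and 0.0398 in fed KO-labelled libraries, against 0.123 and 0.182 CPM in starved and 0.185 and 0.0957 in fed WT libraries. It was detected above a few counts in starved KO-labelled cells alone (278 and 308 counts), whereas Acox3 was low in starved WT cells alone. Phyh, which starts the breakdown of phytanic acid, was at 31.3 and 32.0 CPM in starved and 43.3 and 46.5 in fed KO-labelled libraries, against 6.14 and 7.75 CPM in starved and 14.5 and 14.5 in fed WT libraries. With starvation 8 of the 20 rose and 11 fell in KO-labelled cells (40% and 55%, against 39.4% and 40.3% of all genes; median -0.28), and 4 were higher and 11 lower in WT cells (20% and 55%, against 36.7% and 44.8%; median -1.02). In fed cells 6 were higher and 8 lower in KO-labelled than in WT (30% and 40%, against 34.5% and 39.8%; median -0.06, as over all genes).

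**Figure D4:**
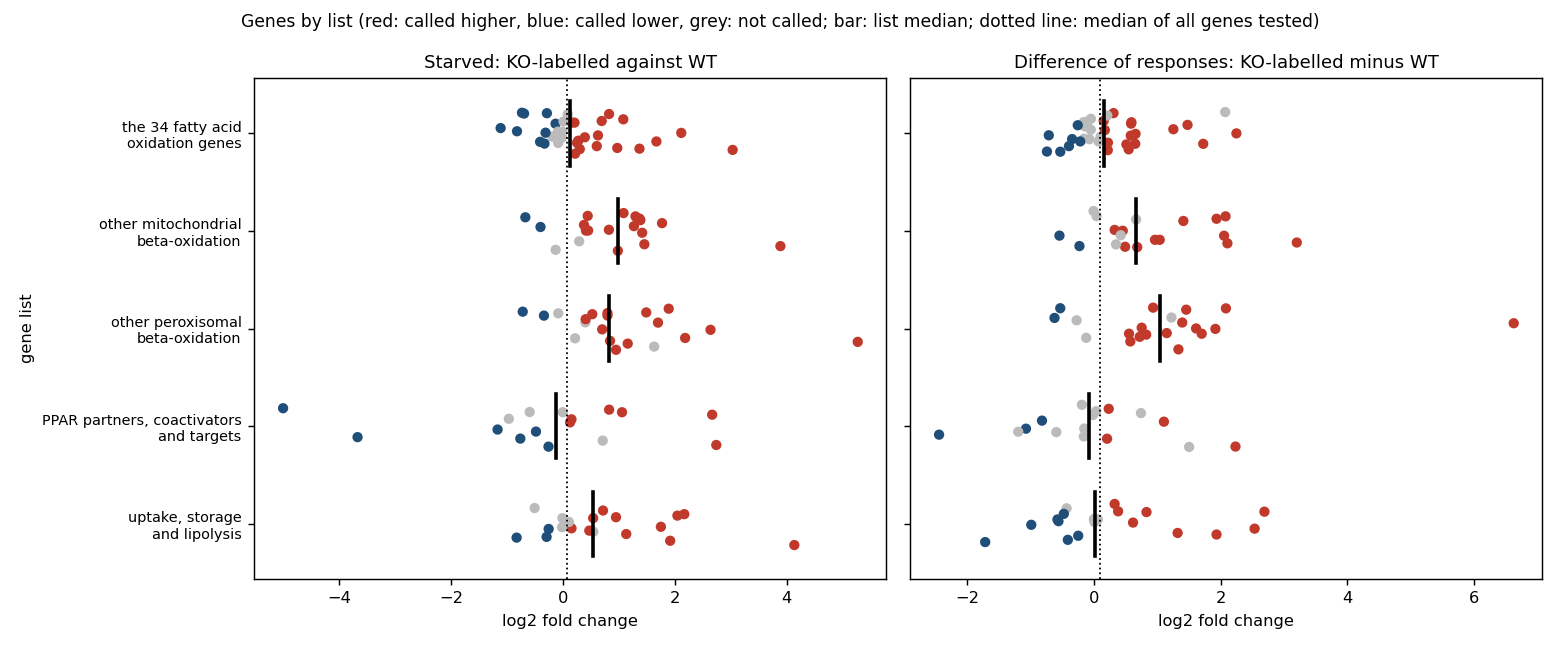
Log2 fold changes of each tested gene (points) in the 34-gene set and the 4 further lists, for starved KO-labelled against starved WT cells (left) and for the difference of responses (right), with list medians (bars) and the median of all genes (dotted line). The medians of the other mitochondrial (0.98 and 0.67) and peroxisomal (0.82 and 1.04) lists lie to the right of that line, and that of the 34 genes (0.12 and 0.17) close to it; library totals move the dotted line itself to 0.39 and 0.29.

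Among the 16 tested partners, coactivators and target genes of the PPAR receptors, calls went both ways between the genotypes in shares near those of all genes. In starved cells 6 were higher and 6 lower in KO-labelled than in WT (37.5% each, against 41.9% and 37.7% of all genes; median -0.13), and in fed cells 5 were higher and 5 lower (31.2% each, against 34.5% and 39.8%; median 0.03). With starvation 8 rose and 6 fell in KO-labelled cells (50% and 37.5%, against 39.4% and 40.3%; median 0.38), and 7 rose and 4 fell in WT cells (43.8% and 25%, against 36.7% and 44.8%; median 0.10). Responses were greater for 4 and smaller for 3 in KO-labelled cells (25% and 18.8%, against 34.1% and 30.4%; median -0.08). Without fed WT replicate 2, 3 were higher when fed, and without either of the starved WT libraries, 2 responses were greater and 5 smaller. Pdk4, the kinase that shuts pyruvate out of the mitochondrial cycle, was at 1.42 and 1.55 CPM in starved and 2.69 and 2.74 in fed KO-labelled libraries, against 19.2 and 18.7 CPM in starved and 74.3 and 74.3 in fed WT libraries. Klf15, a fasting transcription factor, was at 4.17 and 4.23 CPM in starved and 0.227 and 0.199 in fed KO-labelled libraries, against 5.86 and 5.85 CPM in starved and 0.116 and 0.144 in fed WT libraries. Fgf21, a secreted fasting hormone, had 65 and 78 counts in starved KO-labelled and 80 and 64 counts in starved WT libraries, and 0 counts in all 4 fed libraries. Pdk4 and Klf15 thus moved in opposite directions with starvation in both genotypes.

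Of 19 tested genes of fatty acid uptake, storage and lipolysis, 11 were higher and 3 lower in starved KO-labelled than in starved WT cells (57.9% and 15.8%, against 41.9% and 37.7% of all genes; median 0.54), and 11 were higher and 7 lower in fed cells (57.9% and 36.8%, against 34.5% and 39.8%; median 0.71). The starvation counts were near those of all genes. In KO-labelled cells 8 rose and 7 fell (42.1% and 36.8%, against 39.4% and 40.3%; median -0.06), and in WT cells 8 rose and 10 fell (42.1% and 52.6%, against 36.7% and 44.8%; median -0.38). Responses were higher for 8 and lower for 7 (42.1% and 36.8%, against 34.1% and 30.4%; median 0.01). Slc27a1, a fatty acid transport protein, was at 115 and 108 CPM in starved and 33.9 and 32.2 in fed KO-labelled libraries, against 104 and 96.1 CPM in starved and 20.5 and 19.9 in fed WT libraries. Dgat2, which makes triglyceride, was at 39.2 and 40.9 CPM in starved and 9.61 and 9.62 in fed KO-labelled libraries, against 38.0 and 36.2 CPM in starved and 13.4 and 14.0 in fed WT libraries. Both were high in the starved libraries of either genotype, like Acot2 and Eci1. Lipa, the lysosomal acid lipase, was at 173 and 180 CPM in starved and 81.1 and 79.3 in fed KO-labelled libraries, against 50.4 and 54.3 CPM in starved and 91.9 and 90.3 in fed WT libraries. It rose with starvation in KO-labelled cells and fell in WT cells, as Slc22a5 did.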

How the data were processed

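RNA of 8 MEF libraries was measured by sequencing, in 4 groups of 2 named by the sample titles. Raw read counts for each RefSeq transcript were deposited by the authors as whole numbers, per the file headers and the values (31055 rows, 0 of them without a gene). TopHat2 2.0.9, bedtools and build mm9 are named in the submitters' processing notes; for strand, multiple matches and filters, the sources used here give nothing. A further 4 columns matched no sample and were not used. For each symbol the row with most counts was used, since rows of a gene repeat the same reads. The test was the quasi-likelihood F test of edgeR 4.0.16 (R 4.3.3) after TMM scaling and filterByExpr, which kept 14418 genes. It fitted a mean per group to all 8 libraries, with 4 residual degrees of freedom per gene. The spread of each gene was also drawn toward that of other genes, and the smallest p-values rest on this sharing. P-values were adjusted over all genes tested by the Benjamini-Hochberg method and called under 0.05. The common biological coefficient of variation was 0.0341. The SE was derived from the test, by dividing the size of the log2 fold change by the root of F. CPM used the TMM-adjusted library totals, and intervals cover counting error only. The 5 comparisons share groups, so their values are not independent. Lengths came from matched GENCODE transcripts and promoters from RefSeq (GRCm38.p6), and no mm9 coordinates are printed. Scripts were tested on simulated data. Alternatives were DESeq2 1.42.0, library totals, no low filter, summed rows, a replicate block and leaving out each library.

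The members and lists were chosen with earlier results of these data known. All members are named. From each further list, genes were taken from up to 3 per comparison with the largest change of more than 2-fold, and Mlycd and Phyh are such genes; 1 gene that the rule names is not reported here. The single markers of cell types given with values were chosen after those values were seen.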

Additional observations from a re-analysis of the deposited data

Results flagged for a closer look

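The starvation response of 23 of the 34 genes differed between KO-labelled and WT cells by edgeR's quasi-likelihood test of the difference itself. The values here are KO-labelled minus WT log2 fold changes, and 64.5% of all tested genes were called in the same comparison. In the carnitine shuttle and the receptors, the KO-labelled response was higher for Slc22a5 (1.73), Cpt2 (1.48), Cpt1c (0.65), Crat (0.55) and Ppard (0.51), and lower for Cpt1a (-0.53). Among synthetases, dehydrogenases and flavoproteins it was higher for Acadm (0.59), Acad9 (0.58) and Etfb (0.22), and lower for Acsl5 (-0.71), Etfdh (-0.39) and Etfa (-0.34). In the later steps of the spiral it was higher for Decr1 (0.59), Acaa2 (0.31), Hadha (0.22), Hadh (0.17) and Eci2 (0.16), and lower for Echs1 (-0.21). For the thioesterases and peroxisomal genes it was higher for Acox3 (2.25), Acot2 (1.26) and Acaa1a (0.66), and lower for Hsd17b4 (-0.74) and Abcd3 (-0.25).

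The small differences were fragile. Those of Etfb, Hadha, Hadh, Acaa2 and Eci2 were not called with DESeq2 (0.12, 0.13, 0.08, 0.21 and 0.06). Without starved WT replicate 2 they were not called either (0.10, 0.11, 0.08, 0.12 and 0.06), and without starved WT replicate 1 this held for Etfb (0.08), Hadha (0.08), Hadh (0.01) and Eci2, which turned just below 0. Acaa2 was also not called without starved KO replicate 2 (0.21). Hadh and Eci2 lost their calls without 6 and 7 of the 8 libraries in turn. Library totals left Etfa (-0.14), Etfdh (-0.19), Echs1 (-0.01) and Abcd3 (-0.05) uncalled.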

How the results depend on the processing

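Scaling was the choice that moved results most. With library totals, members called higher and over 2-fold higher in WT starvation numbered 2 and 1, and those over 2-fold lower 11. In KO-labelled starvation 5 were higher, 22 lower and 1 over 2-fold higher. In starved cells 4 were lower in KO-labelled than in WT, 8 over 2-fold higher and 0 over 2-fold lower, and 3 responses were lower in KO-labelled cells. In fed cells 0 were over 2-fold lower with library totals, DESeq2, no low filter or summed rows. The share of all calls that were higher was 28.2% with library totals against 45% with TMM in WT starvation, 37% against 49.4% in KO-labelled starvation, 67.4% against 52.6% between starved genotypes and 67% against 52.9% for the difference of responses. Signs turned with library totals in WT starvation for Slc25a20 (-0.24), Acsl4 (-0.27), Acsl5 (-0.34), Acadvl (-0.12), Acadl (-0.10), Echs1 (-0.13), Acot13 (-0.081), Abcd3 (-0.25) and Acaa1a (-0.27). They turned in KO-labelled starvation for Ppard (-0.017), Cpt1c (-0.11), Cpt2 (-0.028), Acad9 (-0.10), Echs1 (-0.14) and Decr1 (-0.065), and between starved genotypes for Eci1 (0.19), Acot13 (0.033) and Abcd3 (0.0092). Kdm3a in fed cells was 0.091 with library totals and 0.013 with DESeq2. The cause was not tested. Of 132 calls of members, 15 were lost with DESeq2, 18 with library totals, 2 with no filter, 4 with summed rows and 5 to 13 when a library was left out.

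Leaving out 1 library gave 9 to 12 members higher and 18 to 20 lower (over 2-fold: 2 and 4 to 6) in WT starvation, and 9 to 13 and 12 to 15 (2 and 2 to 3) in KO-labelled starvation. Between genotypes it gave 12 to 15 and 11 to 13 (0 to 1 and 0 to 2) when fed and 15 to 16 and 8 to 12 (4 to 5 and 1) when starved, and for the difference of responses 11 to 16 and 7 to 12 (4 to 5 and 0). The WT response of Cpt1a then ran from -0.18 to 0.0078, the difference for Eci2 from -0.0023 to 0.17 and fed Kdm3a from -0.031 to 0.039. A lone library left in a group is assumed to vary like the others. Shares of all genes were not counted for these fits, so the ranges are not read as particular to the members. With the replicate block, 3 of 132 calls were lost and member counts stayed within 1.5 times of those without it. Deviations of same-numbered libraries correlated at -0.026 to 0.0205, so no shift shared by them was seen. Whether such libraries were prepared together cannot be told from these values. Replicates differed by more than counting noise (chi-square per degree of freedom 3.37 to 6.21). Depth limits Ppara, with 0 to 31 counts a library.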
